A study of Rattus norvegicus with 196 samples.

Results

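The comparison of cingulate cortex (CGC) with insular cortex (InsularCortex) in untreated rats rests on 6 of the 196 bulk RNA-seq samples of the series, namely the Sham libraries of replicates 3, 4 and 5 from each of the 2 regions. They were chosen by their region, treatment and replicate labels, and replicate 1 was left out because its CGC library had been treated as an outlier. The animals were male Long-Evans rats, 2 months old when treatment began, and the Sham group received water for 6 weeks with no drug. A second set of 6 libraries from the same regions and replicate numbers, from rats given fluoxetine at 18 mg/kg for 6 weeks (the FT group), was used as an independent set of animals. No allele or transgene was involved in either group. Each sample was a pool of tissue punches from 10 animals, so that n = 3 counts pools and the spread between single animals was averaged within each. A punch holds all cell types of the tissue, and in such bulk samples fewer cells of a type and less RNA per cell cannot be told apart.

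The cingulate cortex lies on the medial wall of the frontal lobe and is known for its part in attention, pain affect and the control of action. The insular cortex lies laterally along the rhinal fissure, receives taste, visceral and pain signals, and borders the claustrum, the endopiriform nucleus and, across the external capsule, the striatum. Both are cortical sheets built from the same classes of glutamatergic and GABAergic neurons, and areas of cortex are commonly told apart by neuropeptides, synaptic proteins and activity-regulated genes.

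The 6 libraries held between 4499919 and 18114864 reads on transcripts. The pair of replicate 3 stood apart from the rest. It had 4499919 reads in CGC and 4745675 in InsularCortex, against 12719996 or more in each of the other 4 libraries, and its 50 most abundant transcripts took 52.7% and 55.2% of the reads, against 29.97% to 37.0%. The pair of replicate 1 was left out because CGC replicate 1 had been treated as an outlier. The study's methods report CGC outliers without giving their replicate numbers. In FT, the CGC library of replicate 1 had 83.3% of its reads on its 50 most abundant transcripts, against 43.0% in Sham. In these counts the Sham CGC library of replicate 1 had a median correlation of 0.93 with the other Sham CGC libraries (log2 CPM, 13789 transcripts, where CPM is reads per 1000000 reads on transcripts), against 0.82 for replicate 3. The replicate 1 pair is therefore also given below as a set of values that the test did not use.

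Few transcripts separated the regions in Sham. Of 29188 transcripts listed, 13633 passed the filter on low counts, and 34 of these were called, which is 0.249% of those tested. A transcript was called when its level was at least 25% higher in one region than in the other, by the log2 fold change (log2FC, CGC minus InsularCortex), and its Benjamini-Hochberg adjusted p in edgeR's quasi-likelihood test, with the replicate number as a block, was at most 0.1. Of the 34, 14 were higher in CGC (0.103% of those tested) and 20 were higher in InsularCortex (0.147%). Their absolute log2FC ran from 1.0 to 5.07 with a median of 1.63, whereas the median log2FC of all transcripts tested was -0.02. The call nearest to the threshold had an adjusted p of 0.0973, and the first transcript outside it had 0.103. Without the replicate 3 pair, 130 transcripts were called, including 33 of the 34. Without replicate 4 there were 54 calls, without replicate 5 there were 52, and without the replicate block there were 0.

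All 34 had the same sign in 3 of 3 pairs, which held for 25.5% of all transcripts tested. In 24 of the 34 the CPM of the 3 CGC libraries did not overlap those of the 3 InsularCortex libraries, which held for 2.52% of all transcripts. Both counts come from the libraries that made the calls, so they describe the 34 and are no support for them. In the replicate 1 pair, which did not enter the test that made the calls, 33 of the 34 differed in the same direction. That compares with 70.9% of 13532 transcripts tested in Sham and measured there. Among the 33, ENSRNOT00000004408 hardly differed, at 22.47 CPM in CGC and 22.28 CPM in InsularCortex. Levels were low to moderate. The mean over the 6 libraries ran from 1.2 to 170 CPM, and 11 of the 34 lay under 5 CPM.

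Gene names were at hand for 1844 transcripts, of which 1810 were tested and 5 were called (0.276%, against 0.245% of transcripts without a name). Fos and Cyr61 were higher in CGC. Cartpt, Fam5c and Synpr were higher in InsularCortex. The other 29 called transcripts are known here by their Ensembl identifier alone.

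Fos encodes a subunit of the AP-1 transcription factor and is the classical immediate early gene, induced within minutes of neuronal firing. Its level was 27.5, 27.2 and 45.1 CPM in CGC replicates 3, 4 and 5, and 15.6, 9.67 and 12.8 CPM in InsularCortex (transcript ENSRNOT00000010712). The lowest CGC library lay above the highest InsularCortex library. The means were 33.3 ± 10.2 and 12.7 ± 2.99 CPM (SD, n = 3), and the log2FC was 1.43 ± 0.23 (SE), a 2.69-fold higher level in CGC (edgeR adjusted p = 0.0235). Without the replicate 5 pair the log2FC was 1.19 and Fos was no longer called (edgeR adjusted p = 0.207). The counts behind the values ran from 47 to 738 reads per library. In the replicate 1 pair Fos stood at 35.4 CPM in CGC and 20.0 CPM in InsularCortex.

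Cyr61 (now Ccn1) encodes a secreted matricellular protein that binds integrins and is itself induced rapidly by growth factors and mechanical stimuli. It stood at 2.48, 28.9 and 12.1 CPM in CGC and at 1.66, 5.27 and 3.65 CPM in InsularCortex (ENSRNOT00000019501). CGC was higher in each pair, yet the groups overlapped, because the CGC library of replicate 3 lay below 2 of the InsularCortex libraries. That library held 9 reads of the transcript and its InsularCortex partner 5. The log2FC was 1.94 ± 0.32, a 3.84-fold higher level in CGC (edgeR adjusted p = 0.0259), and without the replicate 4 pair it was 1.48 and no longer called (edgeR adjusted p = 0.224). The replicate 1 pair gave 6.09 CPM in CGC and 1.78 CPM in InsularCortex.

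Cartpt encodes the precursor of the CART peptides, which act in feeding, reward and stress circuits. It had the largest absolute log2FC of the 5. CGC libraries held 2.48, 0.57 and 0.31 CPM and InsularCortex libraries 35.3, 3.37 and 3.42 CPM (ENSRNOT00000023869). The groups did not overlap, and in both regions replicate 3 held the most. The log2FC was -3.30 ± 0.37, a 9.88-fold higher level in InsularCortex (edgeR adjusted p = 0.00123). The CGC values rest on 9, 8 and 5 reads and the InsularCortex values on 106, 69 and 77. In replicate 1 the levels were 1.63 and 15.5 CPM.

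Fam5c (now Brinp3) encodes a neuronal protein that restrains the cell cycle. It stood at 11.01, 12.6 and 11.1 CPM in CGC and at 19.3, 42.4 and 28.2 CPM in InsularCortex (ENSRNOT00000003788). The CGC libraries lay close together and all below the InsularCortex libraries, which spread more widely. The log2FC was -1.36 ± 0.23, 2.57-fold higher in InsularCortex (edgeR adjusted p = 0.028), and without the replicate 4 pair it was -1.09 and not called (edgeR adjusted p = 0.232).

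Synpr encodes synaptoporin, a synaptic vesicle membrane protein related to synaptophysin. It was the most abundant of the 5, at 56.1, 101 and 74.7 CPM in CGC and 88.5, 217 and 172 CPM in InsularCortex (ENSRNOT00000011307). Each InsularCortex library was above its own CGC partner, although CGC replicate 4 exceeded InsularCortex replicate 3. The log2FC was -1.0 ± 0.20, 2.00-fold higher in InsularCortex (edgeR adjusted p = 0.0771). This call was lost without replicate 4 (log2FC -0.92, edgeR adjusted p = 0.248) and without replicate 5 (-0.89, adjusted p = 0.327).

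**Figure D1:**
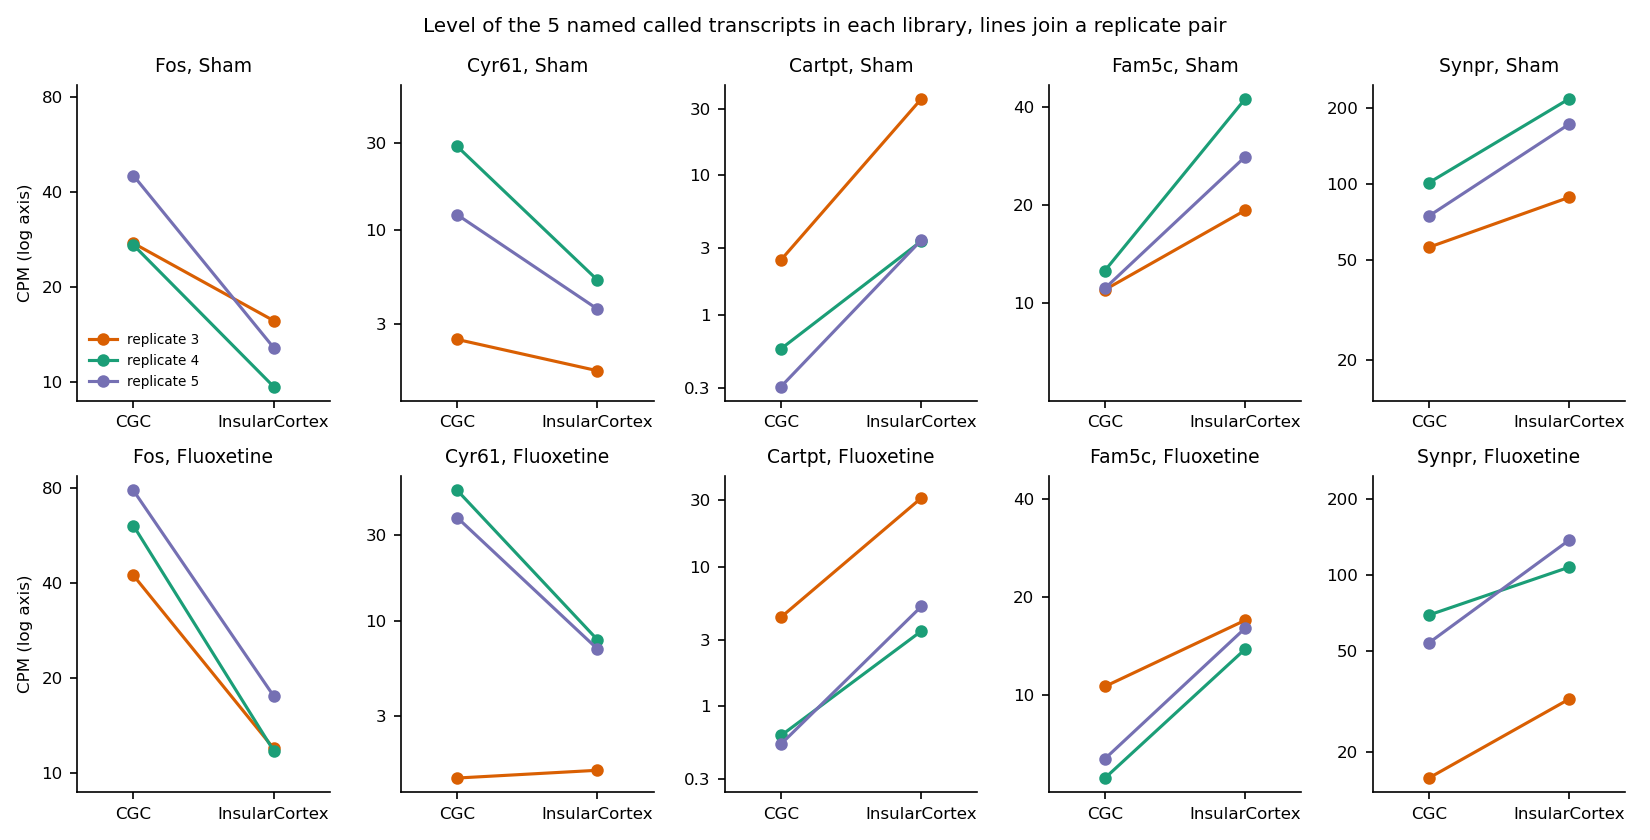
Level of the 5 named called transcripts (columns) in CPM on a log axis, in the CGC and InsularCortex libraries of the Sham (top) and FT (bottom) groups, each line joining the libraries of one replicate number. Every Sham line for Fos and Cyr61 falls from CGC to InsularCortex and every Sham line for Cartpt, Fam5c and Synpr rises, and in FT the line of Cyr61 replicate 3 (1.36 and 1.501 CPM) alone runs the other way.

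Among called transcripts without a name, the 2 with the smallest p in each direction were looked at after their values were known. ENSRNOT00000018402 had the smallest p of all, with 15.96, 25.7 and 17.8 CPM in CGC and 78.9, 90.2 and 77.6 CPM in InsularCortex. The groups did not overlap and the InsularCortex libraries lay close together, for a log2FC of -2.06 ± 0.20 (edgeR adjusted p = 0.000909). ENSRNOT00000010254 had a log2FC of -3.22 ± 0.35, from 0.28 to 0.98 CPM in CGC and 5.99 to 9.08 CPM in InsularCortex. In the other direction, ENSRNOT00000022845 (log2FC 1.79 ± 0.21) ran from 13.4 to 58.9 CPM in CGC and 3.87 to 17.6 CPM in InsularCortex, with CGC higher in each pair. ENSRNOT00000037529 (log2FC 1.86 ± 0.26) ran from 8.25 to 31.4 CPM and 3.99 to 7.33 CPM, without overlap.

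Promoter sequences of the called named genes are shown for those with the largest log2FC in each direction, Cyr61 and Cartpt, because both classes, immediate early genes and neuropeptide precursors, are textbook cases of genes regulated through cyclic AMP response elements (CRE). They are the 250 bases before the transcription start in RefSeq on GRCr8, a later assembly than the rn5 build of the counts, written 5′ to 3′ on the minus strand, for Cyr61 at chr2:237225690-237225939 and for Cartpt at chr2:32991236-32991485. Capitals mark the full CRE TGACGTCA, its half-site TGACG and the TATA-box core TATAA, each searched on both strands, and the full CRE contains the half-site on either strand.
Cyr61: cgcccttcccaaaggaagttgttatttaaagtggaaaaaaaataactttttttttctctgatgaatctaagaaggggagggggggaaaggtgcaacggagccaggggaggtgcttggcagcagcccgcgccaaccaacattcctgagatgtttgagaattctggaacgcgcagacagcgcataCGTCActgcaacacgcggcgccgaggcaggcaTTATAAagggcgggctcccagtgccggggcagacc
Cartpt: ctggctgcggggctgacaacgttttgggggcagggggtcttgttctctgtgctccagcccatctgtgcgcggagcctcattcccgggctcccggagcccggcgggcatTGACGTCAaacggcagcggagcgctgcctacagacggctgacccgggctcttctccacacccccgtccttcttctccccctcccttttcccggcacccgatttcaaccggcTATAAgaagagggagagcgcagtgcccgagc
The Cartpt window holds a full CRE that begins 142 bases before the start, and the Cyr61 window a half-site, on the opposite strand, that begins 67 bases before it. Both hold the TATA-box core, 31 bases before the start in Cartpt and 34 in Cyr61. Of 33469 RefSeq promoter windows of this length, 1.59% hold the full CRE, 18.2% the half-site and 24.0% the TATA-box core. The windows of Synpr and of Fam5c (Brinp3) hold none of these letters. A match is a description of the letters only, and binding was not measured here.

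Beyond the 5 calls, the named transcripts with the smallest p and the same sign in 3 of 3 pairs were taken in each direction, 12 higher in CGC and 12 higher in InsularCortex, whether called or not. Of the 12 higher in CGC, 2 were called (Fos and Cyr61), and the next was Tacr3, the receptor for neurokinin B. Tacr3 stood at 35.2, 23.02 and 18.3 CPM in CGC and 13.97, 14.6 and 10.9 CPM in InsularCortex. The groups did not overlap, but the log2FC of 0.87 ± 0.22 missed the threshold (edgeR adjusted p = 0.276). The transcription factor gene Zfhx4 (log2FC 0.79), the Wnt receptor gene Fzd6 (1.08), the calcium release channel gene Ryr1 (1.23) and the protocadherin gene Pcdh11x (0.66) also missed it, as did Mpp6, a membrane scaffold gene (0.57), the copine gene Cpne7 (0.61), Hmgn5, which encodes a nucleosome-binding protein (0.77), and St7l (0.78). Their adjusted p-values in edgeR ran up to 0.895.

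Of the 12 higher in InsularCortex, 3 were called, and the next was Negr1, a neuronal cell adhesion gene. Negr1 stood at 7.43, 5.84 and 5.44 CPM in CGC and 20.6, 13.3 and 10.1 CPM in InsularCortex. The groups did not overlap, with a log2FC of -1.15 ± 0.25 (edgeR adjusted p = 0.143). The others ran from a log2FC of -0.60 for Ppp1r11, an inhibitor of protein phosphatase 1, to -1.16 for DRD2, the dopamine D2 receptor, with adjusted p-values up to 0.794. Between them lay the copine gene Cpne9 (-0.78), the dopamine-regulated phosphatase inhibitor gene Ppp1r1b (-0.78), Nmnat2, which makes NAD in axons (-0.67), the mitochondrial genes Mrpl15 (-0.65) and Atp5h (-0.67), and the store-operated calcium channel gene Orai2 (-0.82). Mrpl15, Atp5h and Ppp1r11 are values of low certainty, since processed copies of such genes can share reads with them. In the fit that estimated the spread from the Sham and FT libraries together, Negr1, Tacr3, Cpne9, Nmnat2, Fzd6, Zfhx4 and Ppp1r1b were called in Sham as well.

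The gene lists cover only members with a name at hand, so most hold a part of their genes. Over the 23 lists, 203 distinct genes were tested and 4 of them were called (1.97%, against 0.249% of all transcripts). Of the 22 lists with a tested member, 17 had no call. At a share of 0.249% most lists of this size would hold none, so the lack of a call says little about a list. Of the 203, 25 had an unadjusted edgeR p under 0.05 (12.3%, against 4.77% of all transcripts). The lists were chosen with earlier results of these data known, so these shares are a description and no test of the lists.

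Of the immediate early genes, 3 of 27 were tested and 2 were called, both higher in CGC, while Ppp1r15a, a stress-induced phosphatase regulator, had a log2FC of 0.14. The summed level of the list was 41.8 to 73.7 CPM in CGC and 21.6 to 32.9 CPM in InsularCortex. Other members in common use, such as Arc and Egr1, had no name at hand and were not analysed here.

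Of the neuropeptides and peptide hormones, 13 of 42 were tested and only Cartpt was called. The median log2FC of the list was 0.00. The interneuron peptides Sst (log2FC -0.24) and Vip (0.20), the peptide precursor Cck (0.21), and PENK, the proenkephalin precursor (-0.38), all missed the threshold. Sst stood at 342.8, 19.1 and 21.6 CPM in CGC and 582.9, 21.2 and 18.6 CPM in InsularCortex (edgeR adjusted p = 0.997). The replicate 3 pair was high in both regions, and in the other pairs the regions lay close together. For the neuropeptide and hormone receptors, 6 of 40 were tested and none was called (median log2FC -0.14), Tacr3 being the member with the smallest p.

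Of the transmitter receptors, none was called, where 0.249% of all transcripts tested were. The median log2FC was -0.50 for the receptors and markers of dopamine, noradrenaline and acetylcholine (6 of 36 tested), 0.09 for glutamate receptors and transporters (10 of 36) and -0.13 for GABA and glycine receptors (6 of 22). The members with the smallest p were DRD2, the muscarinic receptor gene Chrm1 (log2FC -0.61), the glutamate receptor subunit GRIN3A (-0.82) and the GABA-A receptor subunit Gabrd (-0.64). Of the serotonin system, 1 of 20 genes had a name at hand and it did not pass the filter. Of the voltage-gated ion channels, 17 of 69 were tested and none was called (median log2FC -0.19), with values from -0.67 for Hcn2, a pacemaker channel subunit, to 0.57 for Cacna1h, a T-type calcium channel.

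Of the synapse and calcium signalling genes, 41 of 74 were tested and Synpr alone was called, with 12 of the 41 above 0 and a median of -0.09. The axon guidance and cell adhesion list (19 of 78 tested) and the list of areal patterning and cortical transcription factors (11 of 46) had no call, with medians of -0.12 and 0.05. In these lists Negr1, Pcdh11x and Zfhx4 had the smallest p, beside Nfia, a nuclear factor active in glia and cortical progenitors (log2FC 0.47).

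None of the markers of the main cortical cell classes was called in Sham, where 0.249% of all transcripts tested were. At that share no call is likely among so few markers, so the absence of calls does not show equal cell classes. Of the 3 upper layer markers tested (median log2FC -0.06), Lamp5, the most abundant, stood at 226 to 573 CPM in CGC and 200 to 382 CPM in InsularCortex. The medians were -0.23 for 2 deep layer markers, -0.06 for 6 interneuron markers, 0.02 for 19 oligodendrocyte and myelin genes, 0.01 for 2 markers of oligodendrocyte precursors, -0.01 for 13 astrocyte genes and -0.12 for 8 microglial genes. Single members lay further from 0, for example the myelin gene Tspan2 (log2FC 0.41) and the microglial complement gene C1qa (-0.39). So did the astrocyte genes Slc25a18 (0.40) and Slc6a11 (-0.59), whereas the interneuron marker and parvalbumin gene Pvalb lay near 0 (-0.02). The mitochondrially encoded transcripts, 8 of 14 tested, had a median of 0.31, and MT-ND6 had the smallest p among them (log2FC 0.75, edgeR adjusted p = 0.997).

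Markers of tissue that borders or enters the punches were followed beside these results. Of the claustrum and endopiriform markers, 2 of 18 were tested. They were Synpr, itself one of the calls, and Slc17a6 (log2FC 0.40, not called), with a summed level of 69.1 to 126 CPM in CGC and 93.8 to 240 CPM in InsularCortex. Of the striatal markers, 7 of 24 were tested, none was called, 6 of the 7 were below 0 and the median was -0.39. Their summed level was 143 to 243 CPM in CGC and 161 to 388 CPM in InsularCortex, and within the pairs it was higher in InsularCortex in 3 of 3 (243 and 388 CPM, 143 and 161 CPM, 171 and 192 CPM). For 3 of the 7, Ppp1r1b, DRD2 and Syndig1l, the groups did not overlap, as for 2.52% of all transcripts, and the same 3 had an unadjusted edgeR p under 0.05, as 4.77% of all transcripts had. The most negative were DRD2, at 1.38 to 1.77 CPM in CGC and 2.15 to 7.32 CPM in InsularCortex, and Syndig1l (log2FC -1.09). No defining marker of these lists that was tested was at 0 in either group, and the part of claustral or striatal tissue in the differences of Cartpt, Synpr and Fam5c was not tested.

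Of the endothelial and mural markers, 8 of 29 were tested. Cyr61 is one of them, and it was the only call. Of the 8, 7 were above 0. Its partners ran from a log2FC of -0.12 for Mfsd2a, an endothelial lipid transporter, to 0.60 for Myh11, a smooth muscle myosin, and the summed level was 85.6 to 151 CPM in CGC and 71.9 to 134 CPM in InsularCortex. For meninges, choroid plexus and blood, 7 of 27 markers were tested and none was called (median -0.22), with a summed level of 622 to 1521 CPM in CGC and 876 to 2023 CPM in InsularCortex. The haemoglobin transcript Hbb stood at 458, 73.1 and 158 CPM in CGC and 1097, 140 and 142 CPM in InsularCortex, a range set by the replicate 3 pair, and its reads may be shared with near-identical globin copies. The part of vessels or blood in the differences of Fos and Cyr61 was not tested.

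**Figure D2:**
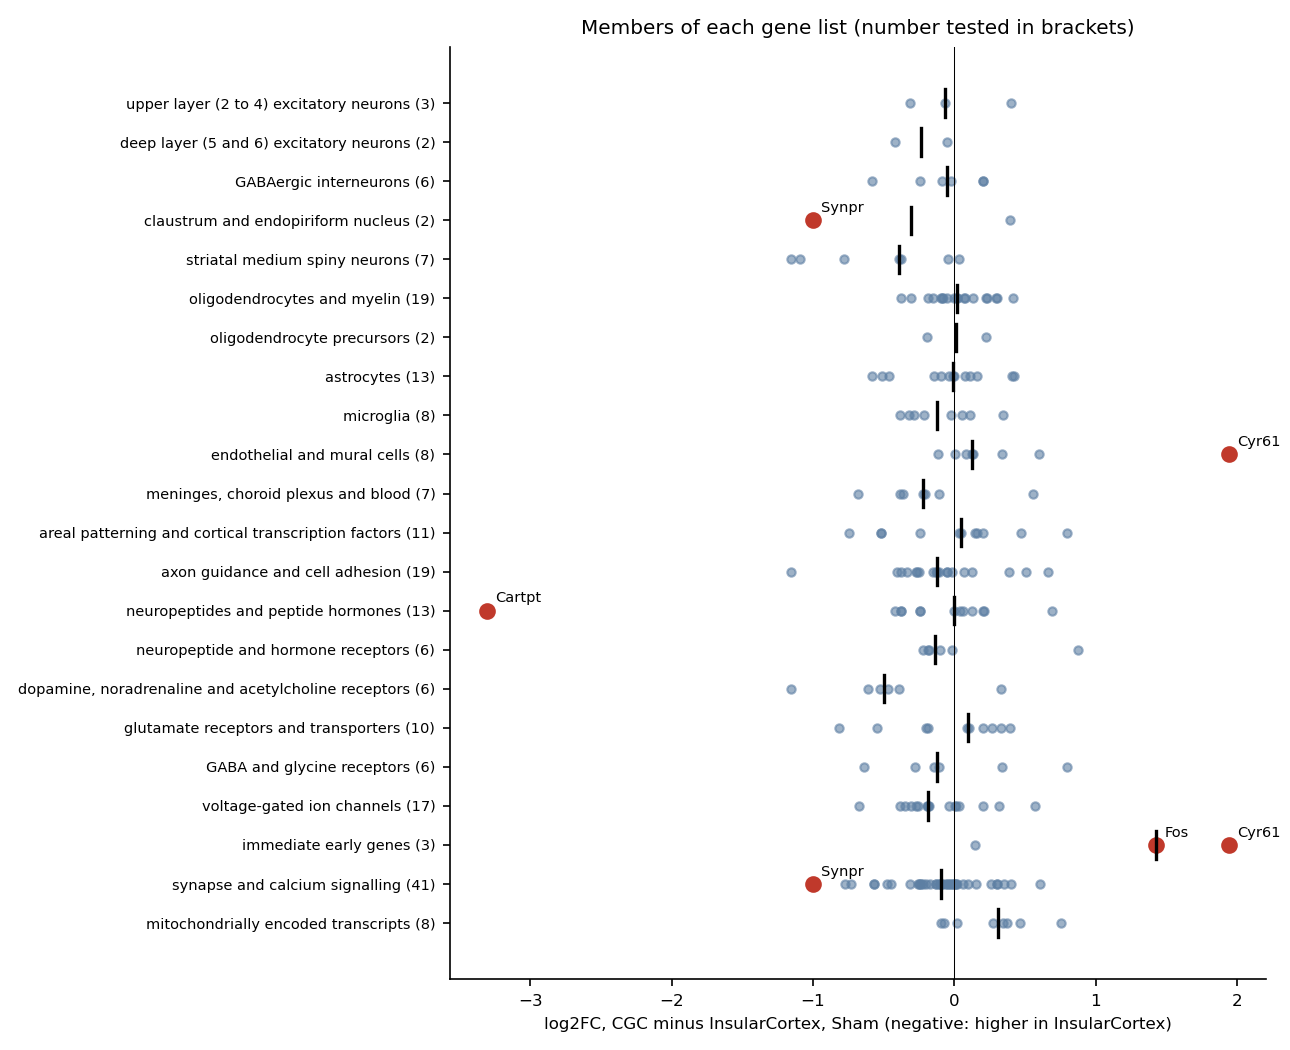
log2FC of CGC minus InsularCortex in Sham for every tested member of each gene list, with the number tested in brackets, the median as a black bar, and called genes as large red points. Called points lie at 1.43 (Fos), 1.94 (Cyr61, in 2 lists), -1.0 (Synpr, in 2 lists) and -3.30 (Cartpt), while the medians of most lists lie near 0.

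The FT libraries gave the same regional contrast in other animals. Of 12767 transcripts tested there, 593 were called (4.64%, and 163 transcripts without the replicate 5 pair), 327 higher in CGC (2.56%) and 266 higher in InsularCortex (2.08%). Of the 34 Sham calls, 30 passed the low-count filter in FT. All 30 had the same direction and all 30 were called, which is 88.2% of the Sham calls and 5.06% of the FT calls. The FT count depended on the fit, with 143 calls by DESeq2 and 0 in edgeR without the replicate block. DESeq2 called 28 of the 34 in FT, and all 34 had the same direction, a count also chosen after the data were seen. Over the 12653 transcripts tested in both groups, 62.8% had the same direction, and Pearson's r of the log2FC was 0.48, a description across transcripts measured in the same libraries. Of the FT calls, 586 were tested in Sham and 530 of them (90.4%) had the same direction there. For the 30 shared calls the median absolute log2FC was 1.54 in Sham and 1.45 in FT.

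The FT libraries had the smaller spread. The biological coefficient of variation was 0.192 in the Sham fit and 0.092 in the FT fit, and 650 transcripts in Sham against 1719 in FT had an unadjusted p under 0.05. The median absolute log2FC of the calls was 0.64 in FT, against 1.63 in Sham. The FT libraries of replicate 3 also stood apart, with 65.9% and 69.4% of reads on the 50 most abundant transcripts.

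Each of the 5 named calls was also called in FT. Fos stood at 42.4, 61.0 and 78.8 CPM in CGC and at 12.01, 11.8 and 17.6 CPM in InsularCortex of FT rats (log2FC 2.17 ± 0.12, edgeR adjusted p = 2.82e-15). Cartpt stood at 4.35, 0.62 and 0.54 CPM against 31.1, 3.45 and 5.19 CPM (log2FC -2.85 ± 0.26). Replicate 3 was again the pair with the most Cartpt in both regions. Cyr61 gave a log2FC of 2.49 ± 0.17, Fam5c of -1.18 ± 0.16 and Synpr of -1.0 ± 0.12. Of the 12 named transcripts higher in CGC in Sham, 11 had the same direction in FT and 7 were called there. Of the 12 higher in InsularCortex, 11 had the same direction and 7 were called, Negr1 (-1.26), Cpne9 (-0.77) and Ppp1r1b (-0.43) among them. These counts include the 2 and 3 named Sham calls of the 2 sets. Of all transcripts tested in both groups, 62.8% had the same direction, and 99 of 1791 named transcripts tested in FT were called.

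Some markers of other cells were called in the regional contrast in FT, and their direction differed between lists. Of the 19 oligodendrocyte and myelin genes, 4 were called higher in CGC of FT rats and 0 higher in InsularCortex, where 2.56% and 2.08% of all transcripts were. They were the myelin protein gene Opalin (log2FC 0.55), Ermn (0.36), Ugt8 (0.36) and Klk6 (0.45). In Sham none of them was called, and Klk6 lay in the other direction (log2FC -0.38). Opalin (0.30), Ermn (0.29) and Ugt8 (0.22) had the same direction in Sham as in FT. Of 7 endothelial and mural markers, 3 were called higher in CGC and 0 higher in InsularCortex, namely Cyr61, the smooth muscle gene Myl9 (0.68) and Higd1b (0.45). Of 7 markers of meninges, choroid plexus and blood, 1 was called higher in CGC and 2 higher in InsularCortex. Of 7 striatal markers 0 and 1 were, the latter Ppp1r1b, and of 13 astrocyte genes 1 and 0. Of 7 microglial genes 0 were called (median log2FC -0.23). The part of white matter or vessels in the FT calls was not tested.

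**Figure D3:**
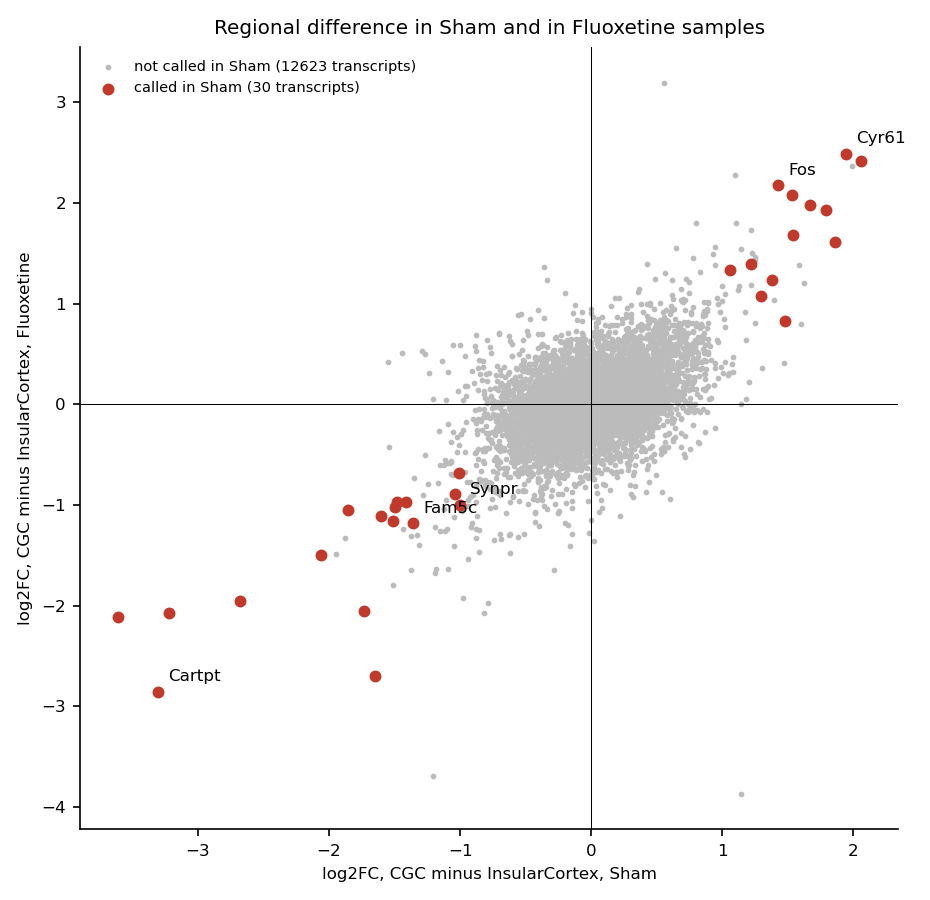
log2FC of CGC minus InsularCortex in Sham (x axis) against FT (y axis) for the 12653 transcripts tested in both, with the 30 Sham calls tested in FT in red and named ones labelled. All 30 red points lie in the lower left or upper right quadrant, and the grey cloud has a Pearson's r of 0.48 together with them.

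Whether the regional difference itself depended on treatment was tested as an interaction over all 12 libraries. With edgeR none of 14097 transcripts was called (0%), 274 had an unadjusted p under 0.05 and the lowest adjusted p was 0.243. DESeq2 called 2, and edgeR called 1 to 6 with a replicate left out. For Fos the interaction had an unadjusted p of 0.0173 and an adjusted p of 0.9999. The lowest unadjusted p (2.05e-05) belonged to Ttr, which shared the lowest adjusted p with an unnamed transcript, and these were the 2 that DESeq2 called (for Ttr a log2 difference of 2.78, DESeq2 adjusted p = 0.00263). Ttr encodes transthyretin, a carrier protein made in bulk by choroid plexus. Ttr stood at 9.08, 16.5 and 10.8 CPM in CGC and 11.3, 5.47 and 9.78 CPM in InsularCortex of Sham rats, where the groups overlapped (log2FC 0.55, edgeR adjusted p = 0.997). In FT it stood at 23.7, 9.99 and 14.2 CPM in CGC and 1.29, 1.13 and 1.88 CPM in InsularCortex, without overlap (log2FC 3.19 ± 0.21). Of the 7 markers of meninges, choroid plexus and blood tested in FT, Ttr alone was called higher in CGC, as 2.56% of all transcripts were. Ptgds (log2FC -0.43) and Ogn (-0.53) were called higher in InsularCortex, as 2.08% of all transcripts were. Kcnj13, of the same list, stood at -0.09, and the list median was -0.09. The part of choroid plexus tissue in the difference of Ttr was not tested.

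Set beside the neighbouring medial areas, prelimbic (PLC) and infralimbic (ILC) cortex of the same Sham pools, more of the 34 separated InsularCortex than CGC from these areas. In one fit of the 4 cortical regions, chosen after the calls were known, 21 of the 34 were also called between InsularCortex and PLC and 19 between InsularCortex and ILC, all in the direction that set InsularCortex apart from CGC. The shares of all transcripts called in those contrasts were 0.997% and 1.39%. Between CGC and PLC, 6 of the 34 were called (0.471% of all), 5 of them in the direction that set CGC apart from InsularCortex, and between CGC and ILC, 7 (0.956%). The CGC and InsularCortex libraries enter several of these contrasts, so that they are not independent of the calls. The ILC library of replicate 3 held 543403 reads on transcripts, against at least 3452944 in any other library of the 25 regions used here. With it left out, a fit chosen after the data were seen, 23, 20, 7 and 10 of the 34 were called in the 4 contrasts in the order above (1.23%, 1.57%, 0.73% and 1.04% of all).

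The 5 named genes followed different patterns over the 4 areas. Fos was lower in InsularCortex than in PLC (log2FC -1.43, edgeR adjusted p = 0.00494) and than in ILC (-1.15, adjusted p = 0.0377), and CGC did not pass the test against PLC (0.00 ± 0.22) or ILC (0.28 ± 0.24). Cyr61 gave the same picture, with -1.67 against PLC and -1.5 against ILC for InsularCortex, both called, and 0.31 and 0.48 for CGC, neither called. Cartpt was higher in InsularCortex than in PLC (2.00 ± 0.37) but not called against ILC (-0.70 ± 0.35), and it was lower in CGC than in ILC (-3.99 ± 0.44, edgeR adjusted p = 0.00107). In ILC it stood at 11.4 CPM, which is 2 reads of the shallow library, and at 5.72 and 8.13 CPM, and in PLC at 3.92, 0.70 and 1.502 CPM. Fam5c and Synpr were not called in any of the 4 contrasts with PLC and ILC. Without the shallow library Fam5c was called higher in InsularCortex than in PLC (log2FC 0.80, edgeR adjusted p = 0.0876) and lower in CGC than in ILC (-0.93, adjusted p = 0.0845), and Synpr was not called. The calls of Fos, Cyr61 and Cartpt in these contrasts were the same without it, with Cartpt at -4.21 ± 0.41 for CGC against ILC.

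Across all 25 regions of the Sham rats, the 2 cortices sat at different places for each gene, described here by the median of replicates 3 to 5 over 73 libraries (one SNT library of 4586 reads left out, the shallow ILC library kept). Without the latter the ILC libraries stood at 23.7 and 33.95 CPM for Fos and at 10.6 and 15.9 CPM for Cyr61. Fos was highest in PLC, CGC and ILC, in that order, with medians of 29.5, 28.0 and 23.7 CPM and ranges that overlapped, and InsularCortex was 15th at 12.7 CPM. Cyr61 had the same leading regions (12.5, 11.9 and 10.6 CPM), with InsularCortex 6th at 3.61 CPM. Cartpt was lowest of all regions in CGC (0.59 CPM), next in PLC (1.58 CPM) and then InsularCortex (3.42 CPM). Its median was highest in the arcuate nucleus (Arc), at 186 CPM, from 2 libraries of 130 and 242 CPM. Ranges overlapped there, with 59.1 to 831 CPM in VMH and 48.0 to 493 CPM in VTA. Fam5c was also lowest in CGC, at 10.9 CPM, close to HB at 11.3 CPM, and InsularCortex was 6th at 27.9 CPM. Synpr was 4th highest in InsularCortex (171 CPM), after CMA, NaCshell and BLA, and 10th in CGC (73.3 CPM).

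The unnamed ENSRNOT00000018402 was highest of all 25 regions in InsularCortex, at a median of 76.8 CPM with a range of 71.1 to 91.6, against 43.2 CPM in the next region, SNT, and it was lowest in CGC at 17.5 CPM. Its InsularCortex libraries lay above all libraries of CGC, PLC and ILC, where the highest value was 31.2 CPM. ENSRNOT00000022845 was highest in PLC, ILC and CGC, with medians of 34.7, 27.6 and 22.8 CPM, and 8th in InsularCortex at 6.30 CPM. The other 2 unnamed examples were not highest in a cortical area. ENSRNOT00000010254 was 15th in InsularCortex (7.44 CPM) and 24th in CGC (0.95 CPM), and highest in NaCshell (18.2 CPM). ENSRNOT00000037529 was 9th in CGC (19.5 CPM) and 23rd in InsularCortex (4.97 CPM), and highest in MDT (43.2 CPM).

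**Figure D4:**
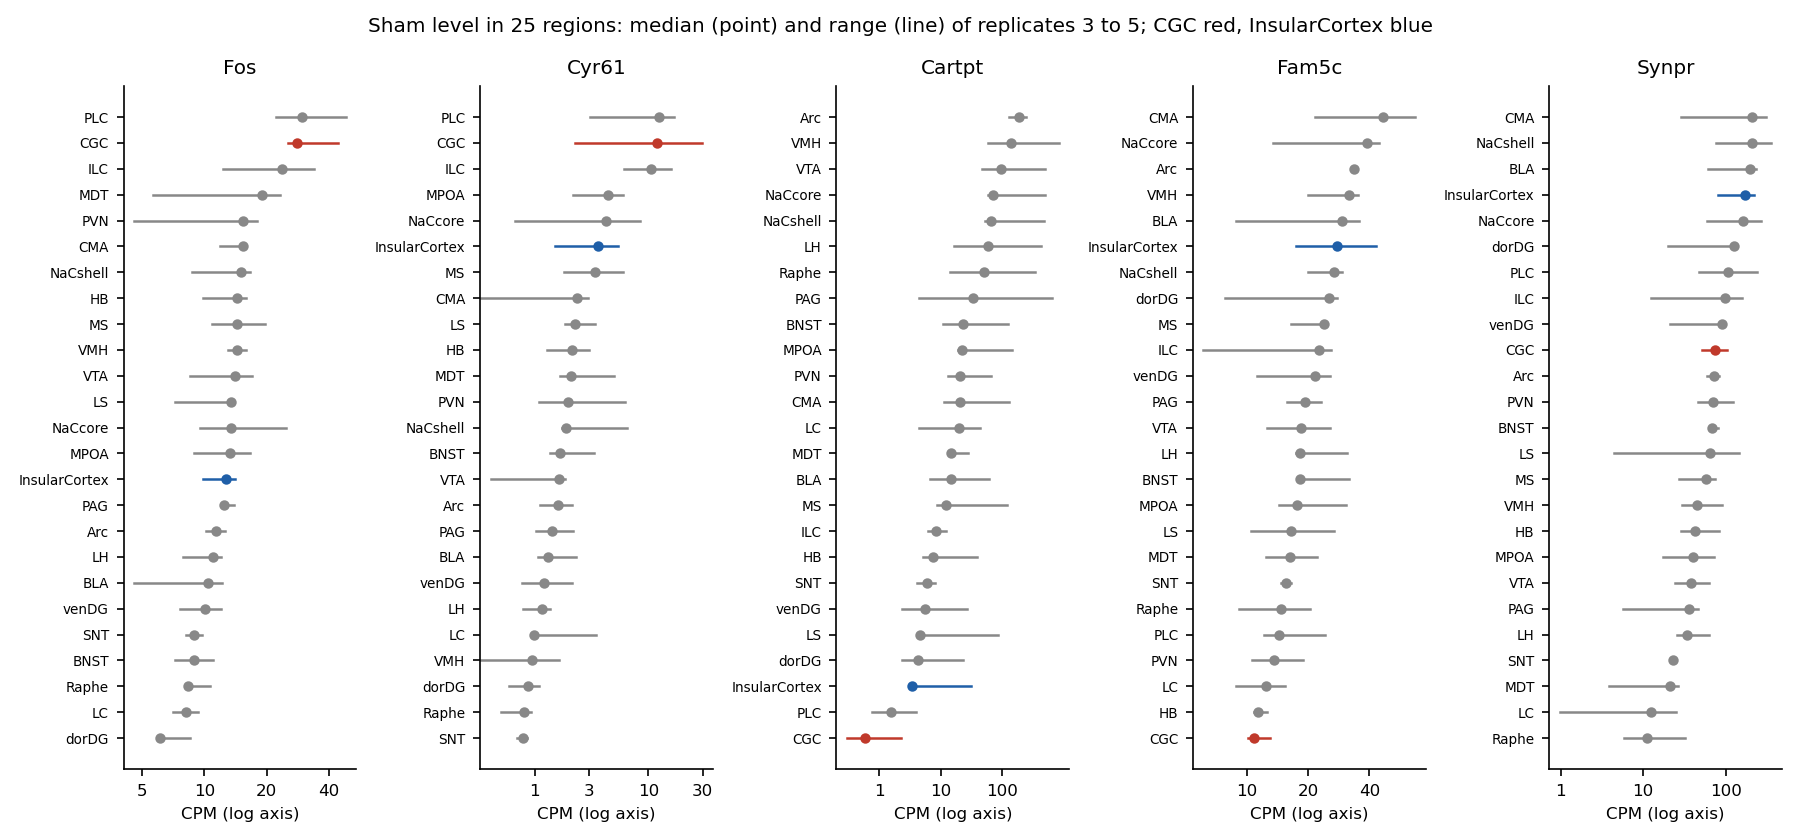
Sham level of the 5 named called transcripts in 25 brain regions, as the median (point) and range (line) of replicates 3 to 5 in CPM on a log axis, ordered by median, with CGC in red and InsularCortex in blue. Arc and SNT have 2 libraries each. CGC is 2nd for Fos and Cyr61 and last for Cartpt and Fam5c, and lines that run off the left edge in the Cyr61 panel end at 0 CPM.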

How the data were processed

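Bulk RNA-seq of frozen, punched rat brain regions was analysed from raw read counts per transcript. The authors deposited these counts without normalization. Per the labels and the study's methods they were made by STAR alignment to rn5 and HTSeq counting on 29188 Ensembl transcripts, from a total RNA kit that marks strand. Tool versions and the strand setting of the counting are not given in the sources used here. Reads shared by transcripts of a gene are set aside as ambiguous (5.16% to 6.03% of all reads in the 6 Sham libraries), and reads outside transcripts made up 31.3% to 48.8%. The summary lines were removed before any test.

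Counts were fitted with edgeR 4.0.16 in R 4.3.3 (TMM factors, filterByExpr at its default settings of 10 for the count and 15 for the total, quasi-likelihood test, replicate number as a block). SE was taken as |log2FC| over √F. DESeq2 1.42.0 was an alternative. Libraries with the same number came from the same pools of 10 animals, and their deviations from the region means correlated at 0.85, 0.81 and 0.77 across transcripts in Sham, so the numbers were used as pairs. P-values measure the spread of the regional difference between 3 pools, with a variance estimate drawn in part from the other transcripts. CPM used TMM library sizes, and log2 CPM a prior count of 2. Counts of 5 to 10 reads carry wide counting error.

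Names came from a supplementary table of the study that lists transcripts changed by fluoxetine in 2 or more regions, so named transcripts are not a neutral sample. The libraries, lists and tests were chosen with earlier results of these data known. Named genes were the 12 in each direction with the smallest p, the same sign in 3 of 3 pairs and a mean of at least 1 CPM, and from each of 23 lists up to 4 called members or, with none, the 2 with the smallest p. Promoter windows came from RefSeq (GRCr8), and 4 of the 5 called named genes matched there.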

Additional observations from a re-analysis of the deposited data

Results flagged for a closer look

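Nrros, a microglial regulator of TGF-beta activation, was higher in CGC in each Sham pair and higher in InsularCortex in each FT pair. The same sign in 3 of 3 Sham pairs held for 25.5% of all transcripts tested. The direction was the same in Sham and FT for 62.8% of transcripts tested in both, so a reversal was common. Sham libraries held 3.03, 2.71 and 7.88 CPM in CGC and 2.66, 1.86 and 6.63 CPM in InsularCortex, and FT libraries 1.63, 8.39 and 4.69 CPM in CGC and 1.93, 8.57 and 6.74 CPM in InsularCortex. The log2FC was 0.34 in Sham and -0.26 in FT, a difference of -0.60. Neither was called, and the interaction had an unadjusted p of 0.086 and an adjusted p of 0.9999 in edgeR.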

How the results depend on the processing

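The Sham count of 34 calls changed with the processing. Without the replicate block it was 0 (62 transcripts with an unadjusted p under 0.05), without the low-count filter 153, at an adjusted p of at most 0.05 21, and with Sham and FT in one fit 115. Leaving out the replicate pairs in turn gave 52 to 130 calls, namely 130 without replicate 3, 54 without replicate 4 (36 higher in CGC) and 52 without replicate 5 (12 higher in CGC), with 33, 24 and 16 of the 34 among them. With 2 pairs left, the estimate of the spread rests even more on pooling over transcripts. DESeq2 called 34, of which 28 were shared, and other settings gave 32 to 47. Cartpt was called under 11 of 12 alternatives, Fos, Cyr61 and Fam5c under 10 and Synpr under 7, and none of the 5 was called without the block. The FT count of 593 was 143 with DESeq2, 0 without the block, and 163 to 692 with a pair left out (163 without replicate 5). The interaction count of 0 was 2 with DESeq2 and 1 to 6 with a pair left out. Ttr was called with DESeq2 and without replicate 3 or 4. The log2FC of Sema3e (-0.05) turned to 0.023 without the block and 0.12 with all 4 pairs, and lay between -0.35 and 0.21 with a pair left out, above 0 without replicate 4 or 5. That of Bcan (-0.20) lay between -0.45 and 0.21, above 0 without replicate 3. Neither was called in any fit. The cause of these changes was not tested. The low depth of replicate 3 limits what can be seen for transcripts of a few CPM.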
